A study of Mus musculus with 8 samples.

Results

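Noct encodes nocturnin, and it held more reads than any other gene counted in tumors grown from Neuro-2a (N2A), a cell line of mouse neuroblastoma. The gene was chosen by its reads summed over 8 tumors, so its rank and its total are a description and were not tested. It is 1 of 35373 gene symbols in the transcript tables, and its 4 annotated transcript models are 4 of 116747. Of 16395 GENCODE transcripts of long noncoding or unconfirmed genes, 73 were among those the authors counted. Most such RNAs could therefore take no reads. The cells (1000000 per mouse) were implanted under the skin of female A/J mice bought at 4 weeks of age, a strain in which this line grows with the immune system intact. Once a tumor could be felt, mice received vehicle or 10 mg/kg of SR59230A, which blocks the β3-adrenergic receptor, by injection into the abdomen. The labels list 4 tumor samples for each treatment. The tumors are numbered 0 to 3 for vehicle and 1 to 4 for SR59230A. Every tumor came from the same cell line, and each one was a whole mass with tumor and host cells together. The paper describes the sequencing as done in duplicate, and the labels give each sample only a number, so whether the samples of a group came from separate mice is not given in the sources used here. An n of 4 below counts these samples, and a tumor below means 1 such sample.

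Nocturnin belongs to a family of exonuclease, endonuclease and phosphatase enzymes whose best known members shorten the poly(A) tails of mRNA. Nocturnin itself removes a phosphate from NADP+ and NADPH, and its mRNA is known for a daily rhythm in liver, fat and retina. The full-length protein starts with a signal that directs it to mitochondria. A shorter protein that begins at a downstream start codon lacks that signal.

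On GRCm38, Noct lies on the plus strand of chromosome 3 from 51224447 to 51251644 (ENSMUSG00000023087). Noct-201 (ENSMUST00000023849, 3059 bases) is the reference mRNA, with 3 exons and a coding frame of 429 residues. Noct-203 (ENSMUST00000167780, 2992 bases) encodes the same 429 residues from 4 exons. Noct-202 (ENSMUST00000144826, 9797 bases) does not contain the first exon of these models. It starts at 51240206, which is 15759 bases downstream within their first intron, and its own first exon runs for 7869 bases to 51248074 without a break. Its second exon, from 51249697 to 51251624, is the last exon of the gene. The annotation tags Noct-202 as a model with a retained first intron and gives it a frame of 365 residues. Noct-204 (ENSMUST00000193018, 805 bases) is a fragment whose 3′ end was not found. Its first exon, from 51243408 to 51243852, lies inside the first exon of Noct-202.

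**Figure D1:**
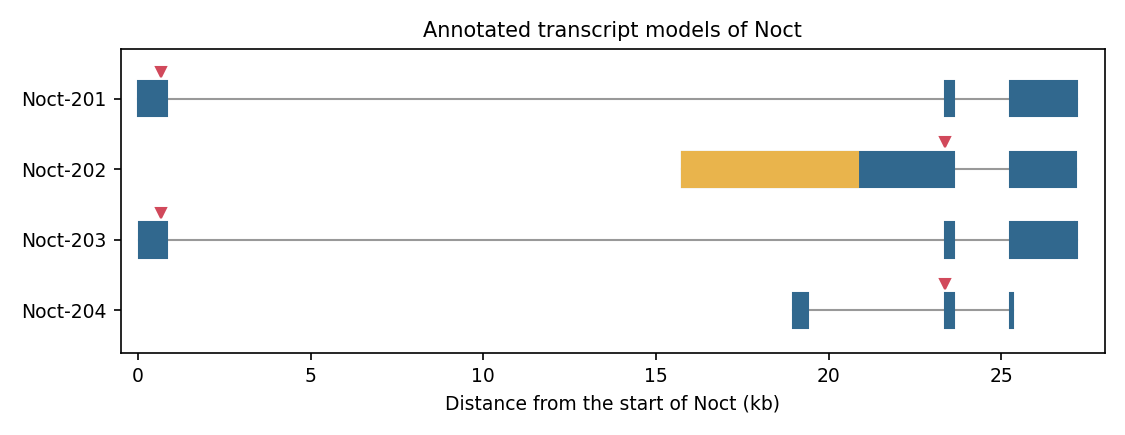
Exons (boxes) and introns (lines) of the 4 annotated Noct models, with distance from the start of Noct in kb on the horizontal axis and 1 model per row; triangles mark annotated start codons and the orange box marks the first 5096 bases of Noct-202. Noct-202 begins 15.759 kb into the gene and carries one exon of 7869 bases.

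The coding ends of the models are shown because they tell which protein each would make. Both run 5′ to 3′ on the plus strand of GRCm38, 60 bases each, and the capitals mark the start codon. The first is at chr3:51225104-51225163 in exon 1 of Noct-201 and Noct-203. The second is at chr3:51247813-51247872 in the exon that all 4 models share.
Noct-201 and Noct-203: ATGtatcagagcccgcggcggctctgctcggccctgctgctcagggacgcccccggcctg
Noct-202 and Noct-204: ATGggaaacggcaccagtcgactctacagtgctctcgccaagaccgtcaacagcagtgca

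The join of exon 1 to exon 2 is shown because a read that spans it can come from Noct-201 or Noct-203, which have the same join. Such a read cannot come from Noct-202, which lacks exon 1. The printed stretch holds the last 30 bases of exon 1 (chr3:51225258-51225287) and the first 30 of exon 2 (chr3:51247805-51247834). Its capitals mark the codon that opens the frame of Noct-202.
Noct-201, exons 1 and 2: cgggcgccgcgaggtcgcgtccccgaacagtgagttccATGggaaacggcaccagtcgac

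That codon lies 8 bases into exon 2 and is in frame with the start of Noct-201. The frame of Noct-202 therefore lacks the first 64 codons (192 bases) of Noct-201 and keeps the rest, which includes the enzyme's catalytic domain. Ahead of this codon Noct-202 carries 7607 bases of 5′ untranslated sequence, 77.6% of its length, against 657 bases in Noct-201.

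Nearly all Noct reads were assigned to Noct-202. In the vehicle tumors it had 2493286, 3913783, 2366383 and 2723661 estimated reads in tumors 0, 1, 2 and 3. In the SR59230A tumors it had 2779115, 4511477, 3981532 and 2848068 in tumors 1, 2, 3 and 4. The counts overlapped between the treatments, with the lowest in vehicle tumor 2 and the highest in SR59230A tumor 2. Library totals also differed, from 23484190 to 44045575 reads. Noct-202 took 98.9% of the Noct reads in vehicle tumor 3, 99.8% in SR59230A tumor 4 and at least 99.9% in the other 6 tumors.

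Noct-201, the reference mRNA, had 8.32, 13.1, 15.9 and 9.10 estimated reads in vehicle tumors 0 to 3. With SR59230A it had 25.3, 20.2, 16.1 and 14.5 in tumors 1 to 4. Noct-203 had 0 estimated reads in all 8 tumors. Noct-202 thus had 109820 to 299638 reads for each read of Noct-201, on a count that is not corrected for length.

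Noct-204 had 742, 1310, 826 and 30648 reads in vehicle tumors 0 to 3. With SR59230A it had 1710, 1369, 1488 and 6439 in tumors 1 to 4. Vehicle tumor 3 stood apart from the other vehicle tumors, and SR59230A tumor 4 was the highest of its group. The order of the 3 models was the same in all 8 tumors.

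**Figure D2:**
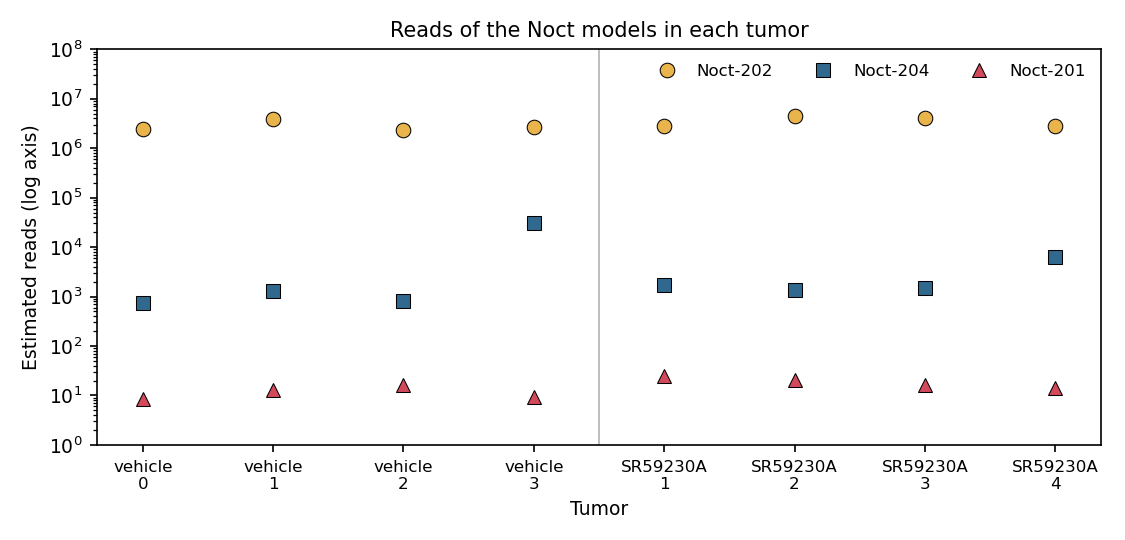
Estimated reads of Noct-202, Noct-204 and Noct-201 (vertical log axis) in each of the 8 tumors (horizontal axis), with 1 point per model and tumor; Noct-203 had 0 reads and is not drawn. Noct-202 lies at 2366383 reads or more in every tumor, and Noct-201 between 8.32 and 25.3.

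Corrected for length, the order of the models was the same and the gene's rank was not. In TPM, a level scaled by transcript length and library size, Noct-202 was at 11301, 15091, 12862 and 10629 in vehicle tumors 0 to 3 and at 13257, 18099, 24441 and 11768 in SR59230A tumors 1 to 4. Noct-201 was at 0.166 to 0.375 TPM with vehicle and at 0.267 to 0.517 TPM with SR59230A. Noct-204 was at 43.1, 64.8, 58.8 and 1504 TPM with vehicle and at 107, 72.5, 127 and 327 TPM with SR59230A. In vehicle tumor 3 it thus held 1504 of 12133 Noct TPM, a larger part than its 1.11% of the Noct reads. By reads, Noct ranked first of all genes counted in each tumor. By TPM it ranked 9, 2, 2 and 12 in vehicle tumors 0 to 3 and 5, 1, 4 and 10 in SR59230A tumors 1 to 4. Over the pooled reads Noct held 9.68%, and Gm10800, the gene next below it, held 1.67%. Within single tumors the gene next below Noct was Gm48368 in 4 tumors, Gm10800 in 2 and Lars2 in 2, and Noct had 1.37 to 6.49 times its reads, not corrected for length. Gm10800 ran from 0.00160% of reads in SR59230A tumor 2 to 6.36% in vehicle tumor 0.

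The effective length that the authors' counting used for Noct-202 ran from 9330 to 10102 bases. It exceeded the annotated 9797 bases in vehicle tumors 0 and 3 and SR59230A tumor 4. These were also the 3 tumors with the most reads on Gm10800 and the 3756-base model of Lars2 together, at 6.54%, 4.78% and 9.24% of all reads against 0.0427% to 2.83% in the other 5. The part of this in the Noct values was not tested.

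The sequence of Noct-202 was then compared with other transcripts. Only its last 2198 bases, from position 7600, are shared with Noct-201. The 7599 bases before them are absent from Noct-201 and include the first exon of Noct-204. They hold an open frame of 1071 codons from position 443 to 3655 that lies apart from the annotated nocturnin frame. It was counted from stop to stop, with no start codon required. The first 181 bases return letter for letter at positions 4916 to 5096, as found by comparing chosen windows and not the whole of Noct-202. Direct repeats at both ends of a long open frame are the layout of LTR retrotransposons, mobile elements of which the mouse genome holds many near copies, and which can be transcribed from their own ends in tumors and in embryonic cells. No repeat annotation was used, and whether Noct-202 holds such an element was not tested. The sequence of this part is not printed.

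Each 31-base stretch of Noct-202 was looked up in the other annotated transcripts. Of 9767 stretches, 2586 (26.5%) were in another Noct model and 866 (8.87%) were in transcripts of other genes analysed here on the same strand. All 866 lay before position 7600, and none lay in the part shared with Noct-201. On the opposite strand, 3565 stretches (36.5%) matched other genes. A further set of annotated transcripts was absent from the authors' counts, so its members could take no reads. They held 3833 stretches (39.2%) on the same strand, mostly within the first 5096 bases. The largest were the noncoding Gm42860 with 2731 stretches and Gm29084 with 1334. No other transcript analysed here held 6478 of the stretches (66.3%).

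**Figure D3:**
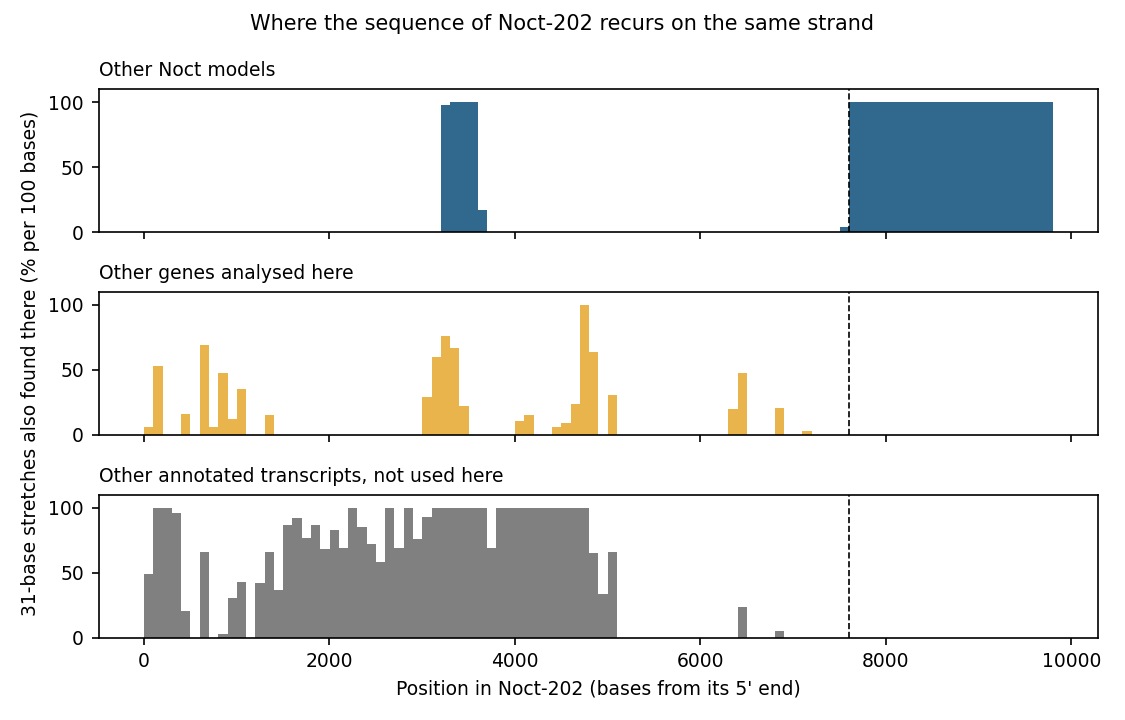
Percent of the 31-base stretches in each 100-base window of Noct-202 (vertical axes, position from its 5′ end in bases on the horizontal axis) that also occur in other Noct models (top), in other genes analysed here (middle) and in other annotated transcripts (bottom); the dashed line is position 7600, where the part shared with Noct-201 begins. Windows shared with other genes all lie left of that line.

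The tables give 1 count per transcript and no position along it. So the share of Noct-202 reads that fell on its first 7599 bases, on its coding frame or on its last exon cannot be read from them. Reads from copies of the first part elsewhere in the genome cannot be told apart from reads of this locus. The counts of all Noct models and of the related transcripts below are also uncertain, since Salmon divides reads that match several transcripts among them by its own estimate. Noct-201 and Noct-203 share most of their sequence, so the 0 reads of Noct-203 are a product of that estimate too. Whether that estimate used strand is not given in the sources used here. The reads of Noct-202 can therefore not be taken as reads of nocturnin mRNA alone. Noct-201 bears on that mRNA more directly, since its first exon is absent from Noct-202, but it had at most 25.3 reads in a tumor.

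SR59230A was then compared with vehicle, the contrast that the study was made for. Noct took 8.72%, 8.89%, 7.58% and 9.58% of all reads in vehicle tumors 0 to 3. With SR59230A it took 8.42%, 10.3%, 17.0% and 8.88% in tumors 1 to 4. SR59230A tumor 3 was highest, tumor 2 lay just above the vehicle tumors, and the remaining pair lay among them. The means were 8.69% ± 0.831 with vehicle and 11.1% ± 3.96 with SR59230A (SD, n = 4 each), a difference of 2.46 percentage points (exact two-sided permutation test over 70 assignments, p = 0.257, smallest possible 0.0286). Without SR59230A tumor 3 the SR59230A mean was 9.21% ± 1.00 (SD, n = 3). As a share of TPM, Noct was at 1.29% ± 0.164 with vehicle and 1.70% ± 0.565 with SR59230A (SD, n = 4 each, exact permutation p = 0.229).

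Scaled by TMM, the factors of edgeR that set libraries on a common scale, Noct was at 91854, 80261, 71467 and 105507 CPM (counts scaled to library size, with no correction for length) in vehicle tumors 0 to 3. With SR59230A it was at 75877, 95832, 193878 and 98056 CPM in tumors 1 to 4. The 2 groups overlapped except for SR59230A tumor 3. The log2 fold change of the gene, SR59230A over vehicle, was 0.41 (standard error, SE, 0.33, 95% interval -0.32 to 1.14), with an edgeR adjusted p of 0.996. The exact two-sided permutation test on its log2 CPM gave p = 0.429. Without SR59230A tumor 3 the log2 fold change was 0.04. By edgeR's quasi-likelihood test 0 of 15190 genes were called (0% called), where a call needs an adjusted p under 0.05 and a log2 fold change of 0.5 or more in size; 707 genes were under 0.05 before adjustment. DESeq2 called 36 of 16397 (0.22%), and Noct was not among them (log2 fold change 0.40, DESeq2 adjusted p = 0.999).

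**Figure D4:**
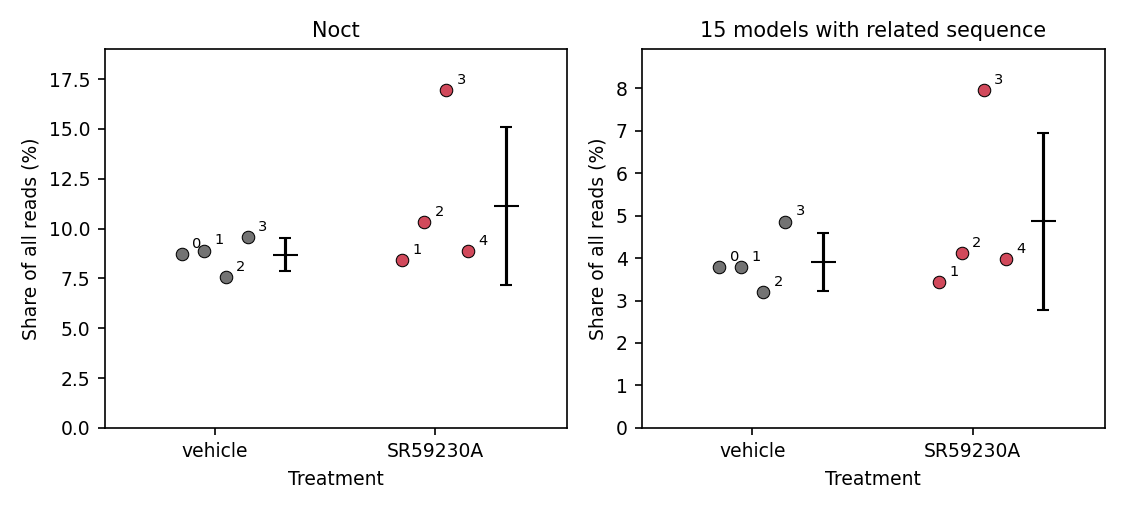
Share of all reads (vertical axes, %) on Noct (left) and on 15 related transcript models (right) by treatment (horizontal axis). Points are tumor samples with their numbers, and bars are the mean and SD of 4 samples. SR59230A tumor 3 is highest in both panels, at 17.0% and 7.97%, and the other tumors of both groups overlap.

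At transcript level edgeR called 0 of 42870 models (0% called), 1008 of them being under 0.05 before adjustment, while DESeq2 called 214 of 61639 (0.347%). Noct-202 had a log2 fold change of 0.35 (SE 0.36, 95% interval -0.46 to 1.17, edgeR adjusted p of 1.00, exact permutation p = 0.4). Its mean was 87865 ± 9559 CPM with vehicle and 112329 ± 43927 with SR59230A (SD, n = 4 each). The transcript fit has its own scaling factors, so these CPM are not on the scale of the gene's. Without SR59230A tumor 3 the log2 fold change of Noct-202 was 0.05.

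Noct-201 was at 0.294, 0.285, 0.512 and 0.324 CPM in vehicle tumors 0 to 3 and at 0.674, 0.454, 0.706 and 0.473 in SR59230A tumors 1 to 4. SR59230A tumors 1 and 3 lay above every vehicle tumor, and tumors 2 and 4 lay below vehicle tumor 2. Its log2 fold change was 0.70 (SE 0.42, 95% interval -0.25 to 1.65, edgeR adjusted p of 1.00, exact permutation p = 0.0857). The interval is wide, and with so few reads no change within it can be excluded.

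Noct-204 was at 27.3, 28.8, 26.4 and 1105 CPM in vehicle tumors 0 to 3 and at 46.1, 31.1, 65.7 and 218 in SR59230A tumors 1 to 4. Every SR59230A tumor lay above vehicle tumors 0, 1 and 2 and below vehicle tumor 3. The log2 fold change was -1.72 (SE 1.33, 95% interval -4.74 to 1.30, exact permutation p = 1). Noct without Noct-202 followed Noct-204, which holds most of those reads (30648 of 30657 in vehicle tumor 3). This remainder was fitted separately, with library totals that leave out Noct-202, so its CPM are not on the scale of those of Noct-204. That remainder was at 30.7, 30.1, 28.3 and 1304 CPM with vehicle and at 52.6, 32.8, 81.3 and 246 with SR59230A, with a log2 fold change of -1.75 (SE 1.30). Without vehicle tumor 3 it was 1.79, with an edgeR adjusted p of 0.512, so 1 library set its direction.

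A set of 15 transcript models of 13 other genes shared at least 100 stretches with Noct-202 on the same strand. They were chosen after the sequence was read, and their reads and those of Noct-202 are divided by the same estimate. Those with the most reads were the single model of Gm48368, a processed pseudogene with 140 shared stretches, those of the pseudogenes Gm10040 and Gm9864 with 349 and 356, and the 1548-base model of Sirt5 with 111. Sirt5 encodes a mitochondrial sirtuin that removes acyl groups from lysine. Of the 10 genes with the most reads in these tumors, 4 were of this set, namely Gm48368, Gm10040, Gm9864 and Sirt5. The others of the 10 beside Noct were Gm10800, Lars2, Eef1a1, which encodes a translation elongation factor, and the mitochondrially encoded mt-Co1 and mt-Co3.

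Together the 15 models took 3.78%, 3.79%, 3.20% and 4.86% of all reads in vehicle tumors 0 to 3. In SR59230A tumors 1 to 4 they took 3.43%, 4.12%, 7.97% and 3.97%. SR59230A tumor 3 was again highest, and the other 7 tumors overlapped (exact two-sided permutation p = 0.543). With Noct they made up 10.8% to 24.9% of a library. For every 100 reads of Noct-202 there were 39.8 to 51.3 reads on the 15 models and 15.4 to 20.2 on the Gm48368 model alone. The first of these ratios was 44.9 ± 4.29 with vehicle and 43.1 ± 3.36 with SR59230A (SD, n = 4 each, exact permutation p = 0.543).

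All 15 had a positive log2 fold change, from 0.23 (a model of Zfp934) to 0.66 (the 1579-base model of Sirt5), with a median of 0.37 against 0.01 over all transcripts tested. None was called by edgeR or DESeq2, which over all models called 0 of 42870 and 214 of 61639 (0.347%). Of the 15, 14 were highest in SR59230A tumor 3. The Gm48368 model was at 16393, 14422, 12610 and 19810 CPM with vehicle and at 11539, 16132, 30542 and 16729 with SR59230A, a log2 fold change of 0.25 (SE 0.34). The 1548-base model of Sirt5 was at 3959, 3842, 3316 and 5410 CPM with vehicle and at 3617, 4081, 11836 and 4304 with SR59230A (log2 fold change 0.53, SE 0.41). In both, only SR59230A tumor 3 lay above the vehicle tumors. Across the 8 tumors the Pearson correlation of their levels with those of Noct-202 ran from 0.565 to 0.987 (median 0.872). By rank (Spearman) it ran from 0.429 to 0.952, and for the Patj model it was 0.476 against a Pearson value of 0.876. Both are a description over libraries in which shared sequence links the counts.

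**Figure D5:**
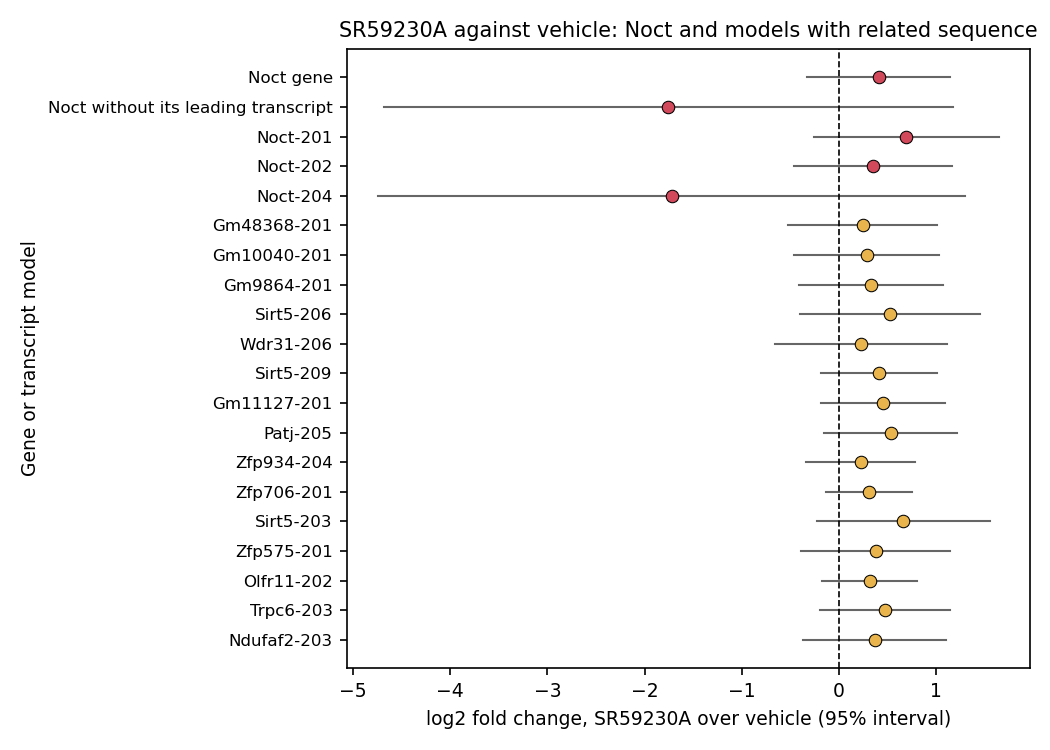
Fold change of SR59230A over vehicle on the log2 scale (horizontal axis) with its 95% interval of Noct and its models (red) and of 15 transcript models with related sequence (orange), 1 per row. Every interval includes 0, and the widest belong to Noct-204 and to Noct without its leading transcript Noct-202.

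Of 15189 other genes that passed the filter on low counts, the 5 whose log2 CPM followed Noct most closely over the 8 tumors were Gm9864 (Pearson r 0.994), Gm10040 (0.981), Sirt5 (0.979), Gm48368 (0.976) and Atp6ap2 (0.975). The first 4 have models with related sequence. Atp6ap2, a subunit that accompanies the vacuolar proton pump and was not in the related set, was at 113, 102, 101 and 115 CPM with vehicle and at 103, 118, 157 and 123 with SR59230A. Its peak was also SR59230A tumor 3.

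SR59230A tumor 3 differed in other ways. It had the smallest total (23484190 reads) and the largest share on mitochondrially encoded genes, 7.47% against 1.30% to 6.11% elsewhere. Fat cells are a tissue in which nocturnin is known to act. The marker sums below were scaled to library totals without TMM, unlike the other CPM. Their markers (6 of 6 detected) summed to 124 CPM in that tumor, to 27.5 to 55.8 with vehicle and to 21.5 to 73.3 in the other SR59230A tumors. Markers of sympathetic neuroblasts (15 of 15 detected) summed to 3008 CPM there, the lowest of all, against 3976 to 5222 with vehicle and 3117 to 3877 in the other SR59230A tumors. Macrophage markers (4 of 4) summed to 41.7 to 73.9 CPM with vehicle and 44.7 to 105 with SR59230A, and red cell markers (3 of 3) to 40.5 to 189 and 27.7 to 86.6. Skeletal muscle markers (4 of 4) summed to 0.384 to 1.91 CPM with vehicle and to 1.90 to 2165 with SR59230A, with 18.4 in tumor 3. The part of these differences in the Noct values was not tested, and in whole tumors fewer cells of a type and less RNA per cell cannot be told apart.

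The genes around nocturnin in its pathways were given as whole lists, and edgeR and DESeq2 called none of their members. Calls were rare over all genes too, at 0 of 15190 by edgeR and 36 of 16397 (0.22%) by DESeq2. Of the relatives of nocturnin, the catalytic poly(A) nucleases Cnot6 and Cnot6l with Pde12, Angel1 and Angel2, all 5 passed the filter, with a median log2 fold change of 0.04 against -0.00 over all genes. Cnot6 was at 264 ± 20.3 CPM with vehicle and 317 ± 23.5 with SR59230A (SD, n = 4 each, log2 fold change 0.26, edgeR adjusted p of 0.996). Cnot6l had a log2 fold change of 0.16 (SE 0.11) and Angel1 of -0.19 (0.24).

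Of the other subunits and partners of the CCR4-NOT complex and poly(A) removal, 16 of 16 passed the filter, 9 with a positive and 7 with a negative value, median 0.05. Btg2 and Btg1, antiproliferative adaptors that recruit this complex, had log2 fold changes of -0.61 (SE 0.17) and -0.40 (0.19), and the adaptor Tob2 had 0.25 (0.11). Btg2 was at 37.1 ± 6.20 CPM with vehicle and 24.4 ± 4.50 with SR59230A (SD, n = 4 each), at an edgeR adjusted p of 0.996 and a DESeq2 adjusted p of 0.193.

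Of the enzymes that make or recycle NADPH, the substrate of nocturnin, 16 of 16 passed the filter, 10 positive and 6 negative, median 0.04. H6pd, which makes NADPH in the endoplasmic reticulum, had a log2 fold change of 0.49 (SE 0.20) and the malic enzyme gene Me1 had 0.13 (0.10). Aldh1l1, a folate enzyme, had 1.72 (0.71) at 0.603 ± 0.329 CPM with vehicle and 2.04 ± 1.67 with SR59230A (SD, n = 4 each).

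Of 23 core clock genes, 22 passed the filter, 14 positive and 8 negative, median 0.11, and Npas2 did not pass. Per1, a repressor of the clock, had a log2 fold change of 0.88 (SE 0.42), at 8.08 ± 2.24 CPM with vehicle and 14.9 ± 8.83 with SR59230A (SD, n = 4 each). Ciart, which encodes another repressor of the clock, had 0.40 (0.21). The hour at which tumors were taken is not given in the sources used here.

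The nearest protein-coding gene is Elf2, which encodes an ETS family transcription factor. Its 3′ end lies 1076 bases beyond the end of Noct, and it is transcribed toward Noct from the minus strand. It was at 84.2 ± 4.27 CPM with vehicle and 79.9 ± 9.10 with SR59230A (SD, n = 4 each, log2 fold change -0.08). The log2 fold change was 0.23 (SE 0.13) for Ndufc1, a gene of respiratory complex I, and -0.15 (0.33) for the protocadherin gene Pcdh18. Of the 3 nearest genes on each side 5 passed the filter, with a median of 0.01, and Pabpc4l did not. Most of 20 abundant RNAs of total RNA libraries, such as 7SK and Malat1, were absent from the authors' counts and could not be compared. Only Lars2 was present. It encodes the mitochondrial leucyl-tRNA synthetase and had 9701 ± 11892 CPM with vehicle and 17186 ± 31367 with SR59230A (SD, n = 4 each). Among its 9 models the 3756-base one held the most reads, and whether these are reads of the synthetase mRNA was not tested.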

How the data were processed

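Total RNA from 8 tumor samples was sequenced after depletion of ribosomal RNA with a stranded kit. The methods name Salmon and the GRCm38 transcriptome, while the submitters' processing notes name Salmon, DESeq2 and GRCm39. In each deposited table the authors gave, per transcript, an estimated count, TPM, length and effective length. A deposited table of normalized counts per gene holds no row for Noct and was not used. Identifiers tied 115636 of the 116747 transcripts (99.0%), and at least 99.5% of reads in every tumor, to the GENCODE annotation on GRCm38. Estimated counts were summed per gene symbol and rounded.

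Treatments were compared with edgeR 4.0.16 (R 4.3.3): its quasi-likelihood test after TMM scaling and its default low-count filter, with p-values adjusted by Benjamini-Hochberg over all genes, or over all transcripts in a separate fit. Single values were compared by an exact two-sided permutation test over 70 assignments. Alternatives used DESeq2 1.42.0, limma 3.58.1 on log2(TPM + a pseudocount), other scaling factors and leaving out tumors. Scripts were tested on simulated data. Transcript sequences came from GENCODE, and stretches of 31 bases were compared on both strands. Pairs of tumors with the same number did not deviate together in every case, so the numbers were not taken to pair tumors. The TMM factors of the gene fit were 1.11 and 1.07 in vehicle tumors 1 and 2 and 1.12 and 1.08 in SR59230A tumors 1 and 2. In vehicle tumors 0 and 3 they were 0.954 and 0.913, and in SR59230A tumors 3 and 4 0.879 and 0.910. With this split as a block the Noct log2 fold change was 0.37 (SE 0.32). The cause of the split was not tested.

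Noct and the gene lists were chosen with earlier results of these data known. Named genes were Noct and its models, the 3 members of each list with the smallest unadjusted p, the 10 genes with most reads and the 5 with the highest correlation with Noct. Of these, 1 list member is not reported here. The models with related sequence were added after the sequence of Noct-202 was read. The sources do not say how tumors were batched, so p-values measure the spread between these samples, which may be partly technical.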

Additional observations from a re-analysis of the deposited data

Results flagged for a closer look

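In 6 of 20 sets of 4 tumors, 1 tumor stood further from the rest than Dixon's 95% limit allows, which chance does in about 1 of 20 sets. The sets are not independent, since several hold the same reads. Vehicle tumor 3 was apart in 4 of them. Its Noct-204 level was 1105 CPM (next 28.8), and Noct without Noct-202 was at 1304 CPM (next 30.7). Noct-202 took 98.9% of its Noct reads (next lowest 99.96), and it had 51.3 reads on the 15 related models for every 100 of Noct-202 (next 43.4). In SR59230A tumor 4, Noct-202 took 99.8% of the Noct reads (next lowest 99.94). In SR59230A tumor 3, the related models took 7.97% of all reads (next 4.12). The cause was not tested.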

How the results depend on the processing

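The Noct log2 fold change kept its sign under 24 alternatives (0.04 to 0.70, or 0.04 to 0.57 without single tumors, lowest edgeR, DESeq2 or limma adjusted p = 0.683). Noct-202 kept its sign under 21 (0.05 to 0.56, or 0.05 to 0.51 without single tumors), and the share difference under 13. The share difference was 0.416 points of TPM with TPM in place of reads. Under the others it was 0.518 to 3.67 points of reads (0.518 to 3.37 without single tumors). Noct without Noct-202 reversed in 5 of 24: 1.79 without vehicle tumor 3, 0.55 in the tumors numbered 1 and 2, 0.92 without vehicle tumors 0 and 3 and SR59230A tumor 4 (chosen after seeing the data), and 0.0862 on log2(TPM + 1) and 0.0932 on log2(TPM + 0.1). Without single tumors it ran from -2.66 to 1.79. The share of Noct-202 among Noct reads differed by 0.214 points, by -0.0561 to 0.305 without single tumors, by -0.00897 without those 3 tumors, and by 2.31 points on TPM in place of reads. Genes called numbered 36 by DESeq2, 5 in the tumors not numbered 1 or 2, 1 in tumors numbered 1, 2 and 3, and 0 to 1 without single tumors (1 without SR59230A tumor 4). Transcripts called numbered 214 by DESeq2 and 0 to 2 without single tumors (2 without SR59230A tumor 4). List members called stayed at 0 in 16 alternatives. With the replicate number as a block, same-numbered tumors had correlations of -0.09, 0.60 and 0.60, not every tumor correlated best with its own number, 2 genes were called, and the log2 fold changes were 0.41 for Noct, 0.36 for Noct-202 and -0.77 for the remainder. The deposited normalized counts were not run, since they hold no Noct. Except where said, the cause was not tested. The few reads of Noct-201 limit its precision.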
